A study of Mus musculus with 5 samples.

Results

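The regions described here are 2543 merged stretches of open chromatin. They hold a listed peak of each of 4 libraries of 5xFAD mouse hippocampus and no peak of a wild-type library. They also lie outside the gene positions of the deposited feature list widened by 1 kb, though some overlap gene starts annotated elsewhere, as given below. They were found by joining the peaks of all 5 libraries wherever these overlapped by 1 bp or more. Regions that touched a gene position of the deposited feature list widened by 1 kb were left out, which took away 462 further regions with the same listing. The 2543 regions are drawn from 220645 merged regions, of which 178385 were distal. Peaks were listed for each library separately, and a library has counts only in the peaks it lists. The count of a merged region sums a library's own peaks within it, so libraries may be counted over different bases. The members were thus chosen by the peak listing, so the absence from wild type is a description and no count of wild type exists inside a member.

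Each library was 1 sample of nuclei from hippocampus, with RNA and accessible DNA read from the same nuclei by the Multiome assay, and nothing in the labels says how many animals it held. The wild-type library (WT) was set beside 5xFAD (TG), 5xFAD with astrocyte-specific MAGL-KO (TG-aKO), 5xFAD with neuron-specific MAGL-KO (TG-nKO) and 5xFAD with global MAGL-KO (TG-tKO). All 5 carry the same batch label, and the labels give no age, sex, strain background or driver of the cell-specific deletions. 5xFAD mice carry transgenes under the mouse Thy1 promoter, which is active in neurons, and develop amyloid plaques. MAGL, encoded by Mgll, breaks down the endocannabinoid 2-arachidonoylglycerol. With 1 library a group, no test between groups was possible. The 95% intervals below, in square brackets, cover only the counting error of cut sites, UMIs, regions or genes.

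Distal open regions include enhancers, stretches of DNA where transcription factors bind and act on genes some distance away. Many enhancers are open in a few cell types only. In 5xFAD brain, microglia around plaques take up a state with high Apoe, Cst7 and Lpl and lower homeostatic genes.

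After filtering, 5014 WT, 4961 TG, 5855 TG-aKO, 3917 TG-nKO and 7031 TG-tKO nuclei were used. The libraries held between 83726719 and 105867030 cut sites in listed peaks and listed between 157482 (TG-aKO) and 180784 (TG-tKO) peaks. Any pair of libraries shared 29 to 63 barcodes. RNA clusters gave 41 named groups of 54, and the class names below are short for clusters like the class. Mgll RNA over all nuclei was 74.3, 77.7, 92.5, 92.6 and 80.5 CPM (UMIs scaled to the same total in every library) in the order WT, TG, TG-aKO, TG-nKO and TG-tKO, so over all nuclei no loss of Mgll was seen in the libraries labelled MAGL-KO, which are named by their labels only. In astrocytes it was 498, 346, 483, 403 and 430.2 CPM and in microglia 299.9, 111, 142, 154 and 100.2 CPM, from 52 to 151 and 20 to 36 UMIs, with TG itself below WT in both. The library labelled TG-tKO stood apart in its nuclei. Oligodendrocytes were 3.09% of its nuclei against 5.26% to 6.79% in the other 4 libraries, and a doublet caller's own threshold marked 2366 of its nuclei against 1 to 6 in the others.

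Sequence could be read only where a member overlapped an annotated promoter window, and only for the bases they share. A total of 22 members overlapped 24 of the 300-base windows around RefSeq gene starts (GRCm38.p6), all of them starts of genes with provisional names. Of the windows, 16 lay wholly inside their member and 4 had under 100 bases inside, down to 1 base. Of 13 motifs searched on both strands, 4 were found in these windows. The AP-1 motif TGANTCA, which reads alike on both strands apart from its middle base, had a match wholly inside 4 of the 22 members (18.2%, 5 sites). The same count gave 111 of 1090 distal regions listed in all 5 libraries that overlap a window (10.2%), and 7.81% of all 32851 windows held the motif anywhere. Counted over whole windows it was in 7 of 24, but in 2 of these the match lay outside the member and 2 overlapping windows of Gm33315 hold the same sites. The NEUROD motif CAGATGG was inside 3 members (13.6%, against 9.36% of regions listed in all 5 and 5.30% of all windows). RUNX TGTGGTT and SOX AACAATGG were inside 1 each (4.55%, against 5.23% and 0.826% of regions listed in all 5, and 5.27% and 345 of all 32851 windows). PU.1 GAGGAAGT, CRE TGACGTCA, C/EBP TTGCGCAA, EGR GCGTGGGCG and the longer motifs of IRF, MEF2, NF1, CTCF and RFX were in none of the 24. A match is a description of these letters and not a bound site.

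Shown first are the windows of the 2 highest of these members, both on the plus strand. The Gm32939 window, at chr13:43516559-43516858, lay with 228 bases inside a member of 8.44, 7.48, 6.22 and 7.75 CPM of cut sites in TG, TG-aKO, TG-nKO and TG-tKO. The Gm4123 window, at chr4:141535299-141535598, lay wholly inside a member of 6.74, 5.95, 5.70 and 6.52 CPM that was most open in oligodendrocyte precursors. Capitals mark a NEUROD match, here in its reverse complement.
Gm32939: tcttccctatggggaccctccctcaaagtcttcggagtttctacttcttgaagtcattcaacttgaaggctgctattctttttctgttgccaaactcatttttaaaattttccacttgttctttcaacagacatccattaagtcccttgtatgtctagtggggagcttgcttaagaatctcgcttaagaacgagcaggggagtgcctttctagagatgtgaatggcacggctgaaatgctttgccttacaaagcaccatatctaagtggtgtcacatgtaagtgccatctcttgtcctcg
Gm4123: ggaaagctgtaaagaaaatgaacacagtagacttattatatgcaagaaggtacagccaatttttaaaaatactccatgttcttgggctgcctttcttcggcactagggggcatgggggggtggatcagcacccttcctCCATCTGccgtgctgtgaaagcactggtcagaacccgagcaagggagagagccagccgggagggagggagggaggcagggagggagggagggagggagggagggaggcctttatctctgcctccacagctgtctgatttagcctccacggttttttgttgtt

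The next windows hold AP-1 matches, in capitals. The Gm33315 window (chr13:52828828-52829127, plus strand) holds 2 of them and lies in a member led by oligodendrocytes, at 2.17, 2.31, 3.02 and 1.959 CPM. The Gm38962 window (chr11:97618536-97618835, minus strand) lies in a member at 1.58, 2.31, 2.45 and 2.99 CPM, lowest in TG.
Gm33315: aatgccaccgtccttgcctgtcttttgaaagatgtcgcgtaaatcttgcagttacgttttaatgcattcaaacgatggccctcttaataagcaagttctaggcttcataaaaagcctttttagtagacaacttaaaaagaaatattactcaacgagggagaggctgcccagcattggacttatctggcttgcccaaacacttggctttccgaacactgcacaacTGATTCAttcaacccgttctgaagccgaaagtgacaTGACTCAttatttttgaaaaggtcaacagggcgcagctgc
Gm38962: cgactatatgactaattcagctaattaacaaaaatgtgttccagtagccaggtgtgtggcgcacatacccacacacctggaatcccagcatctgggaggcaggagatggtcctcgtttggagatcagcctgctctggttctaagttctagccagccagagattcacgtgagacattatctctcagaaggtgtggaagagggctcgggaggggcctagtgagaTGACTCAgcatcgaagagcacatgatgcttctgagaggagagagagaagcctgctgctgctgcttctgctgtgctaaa

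The Gm35148 window (chr11:93808306-93808605, minus strand) holds none of the 13 motifs. It is shown because its member, led by dentate granule neurons, was far lower in TG (1.08 CPM) than in TG-aKO (2.58), TG-nKO (2.56) and TG-tKO (2.09), a pattern described further down.
Gm35148: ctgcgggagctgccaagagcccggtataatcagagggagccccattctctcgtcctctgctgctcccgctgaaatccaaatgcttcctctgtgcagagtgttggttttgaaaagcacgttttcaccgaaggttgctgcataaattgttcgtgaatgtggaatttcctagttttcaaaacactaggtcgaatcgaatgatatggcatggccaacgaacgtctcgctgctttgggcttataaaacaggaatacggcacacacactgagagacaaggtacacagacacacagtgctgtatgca

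Most members were low. Their median height was 1.66 CPM in TG, 1.93 in TG-aKO, 1.83 in TG-nKO and 1.83 in TG-tKO, that is 128 to 171 cut sites a region. The median over members of the mean height was 1.82 CPM, against 3.46 CPM in the 100608 distal regions listed in all 5 libraries. Of the members, 2207 (86.8%) had a mean height of at most 3 CPM and 58 stood above 5 CPM. Their median width was 954 bp and ranged from 376 to 1954 bp, and the lowest had a mean height of 0.566 CPM.

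The number of members was not high for a library left out. Of the 103151 distal regions listed in the 4 5xFAD libraries, 2.47% were not listed in WT. The same share was 3.89% for TG, 5.59% for TG-aKO, 2.56% for TG-nKO and 1.64% for TG-tKO, each against the other 4 libraries, so WT lay between TG-tKO and TG-nKO. The share followed height. It was 17.2% [14.1, 20.6] for WT among regions of up to 1 CPM, 6.48% [6.06, 6.92] between 1.5 and 2 CPM and 0.193% [0.147, 0.250] above 5 CPM, where 58 of 30013 regions were unlisted. The other libraries fell in the same way, from 30.0% to 0.251% for TG and from 32.7% to 0.460% for TG-aKO.

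**Figure D1:**
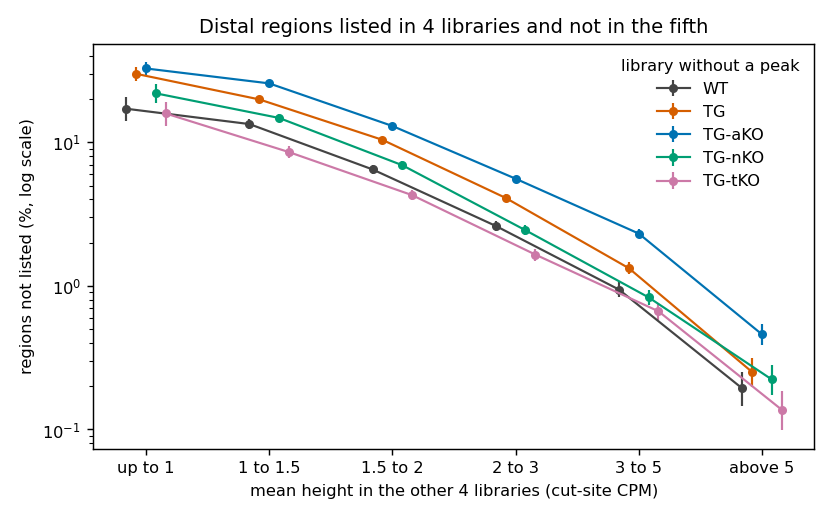
Share of distal regions listed in 4 libraries and not in the fifth (vertical axis, percent, log scale) by the mean height in the 4 that list them (horizontal axis, cut-site CPM). Each colour is the library without a peak, points are shifted sideways for clarity and bars are exact binomial 95% intervals. WT runs between TG-tKO and TG over the first 3 bins and reaches 0.193% above 5 CPM.

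The highest member lay in Thy1, which encodes a surface glycoprotein of neurons and lends its promoter to the 5xFAD transgenes. At chr9:44047273-44047984 it overlapped coding sequence of Thy1, with its midpoint in the untranslated part of an exon, 1328 bp from the nearer edge of the interval listed as the gene's position and 581 bp from the nearest WT peak. It stood at 46.5 CPM in TG, 73.0 in TG-aKO, 81.1 in TG-nKO and 59.9 in TG-tKO. The next highest member, in Ncdn, did not exceed 17.6 CPM in any library. Regions on both sides of the Thy1 member were listed in WT too and show how far the libraries differed there. At the promoter (chr9:44042860-44043763) WT held 23.8 CPM and the 5xFAD libraries 353, 441, 440 and 409 CPM, 14.8 to 18.6 times the WT value. Past the 3′ end of the gene (chr9:44048566-44049427) WT held 15.4 CPM and the 5xFAD libraries 435, 542, 559 and 548 CPM, 28.3 to 36.4 times as much. A region upstream, at chr9:44039508-44040551, was only 1.35 to 1.90 times as high in 5xFAD as in WT. Cut sites of the endogenous gene and of transgene copies with the same sequence cannot be told apart in these counts.

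**Figure D2:**
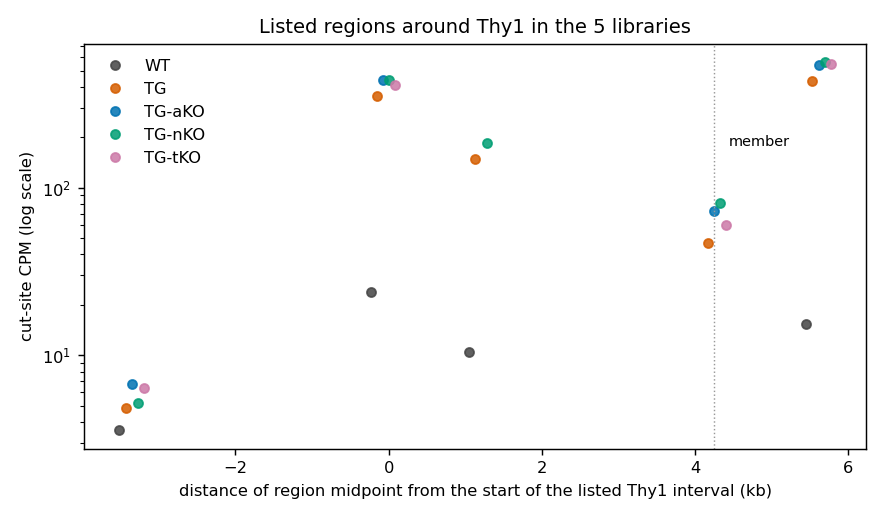
Height of every listed region within 10 kb of Thy1 (vertical axis, cut-site CPM, log scale) by distance of its midpoint from the start of the interval listed as the gene's position (horizontal axis, kb). Each point is 1 library, shifted slightly sideways, and a library without a listed peak has no point. The dotted line marks the member, listed at 46.5 to 81.1 CPM in the 5xFAD libraries, while the WT points at the promoter and downstream regions are at 23.8 and 15.4 CPM.

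The Thy1 member differed from the regions around it in the balance between granule and other excitatory neurons. In dentate granule neurons it stood at 106 CPM [102, 111] in TG, 152 [147, 158] in TG-aKO, 188 [182, 194] in TG-nKO and 137 [132, 142] in TG-tKO. In the other excitatory neurons the values were 31.0 [29.3, 32.9], 48.5, 52.0 and 34.7 CPM, so the granule value was 3.43, 3.14, 3.62 and 3.95 times the excitatory one. At the promoter that ratio was 1.07 to 1.17 in the 5xFAD libraries and 1.12 in WT, and at the downstream region 0.959 to 1.19 in the 5xFAD libraries and 0.917 in WT. The nearest listed region on the promoter side, chr9:44044156-44045018 in a Thy1 intron, held 10.5 CPM in WT, 149 in TG and 185 in TG-nKO and was not listed in TG-aKO and TG-tKO. Its ratio was 1.11, 0.947 and 1.08 in the 3 libraries that list it. The ratio at the member lay above that of each of these regions in every 5xFAD library that lists them. Microglia held 0, 4, 9 and 4 cut sites at the member and oligodendrocytes 4, 5, 2 and 5. Thy1 RNA over all nuclei was 41.5 CPM in WT and 164, 197, 255 and 174 CPM in the 5xFAD libraries. UMIs of the endogenous gene and of any transgene transcript with Thy1 sequence cannot be told apart in these counts either.

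The 7 members next in height are given in turn. In Ncdn, which encodes neurochondrin, a cytoplasmic neuronal protein, the member at chr4:126751573-126752284 stood at 9.89 CPM in TG, 16.1 in TG-aKO, 17.6 in TG-nKO and 16.8 in TG-tKO. TG was the lowest of the 4. The nearest WT peak was 842 bp away, and the neighbouring region at the gene start (chr4:126753119-126754010) held 54.4 CPM in WT and 51.8 to 57.9 in the other libraries. Ncdn RNA was 25.3 CPM in WT and 26.8, 36.0, 35.0 and 26.2 in the 5xFAD libraries, so its order did not follow that of the member. The member in an intron of Dnm1, which encodes the vesicle-scission enzyme dynamin, was flat, at 10.7, 11.6, 11.1 and 10.8 CPM (chr2:32340860-32341692). An intronic member of Disc1, a scaffold gene of neurodevelopment, stood at 9.79, 9.06, 10.4 and 10.6 CPM and lay 129 bp from a WT peak. The Stn1 member (chr19:47507468-47508156) has its midpoint in a coding exon of this telomere-capping gene and stood at 7.86 CPM in TG and 8.70, 10.2 and 10.1 CPM in the others. The remaining high members lay over an untranslated exon of Slc8a2, a sodium-calcium exchanger (8.73, 9.85, 7.76 and 8.81 CPM), in an intron of Taf2 (7.51, 8.89, 9.21 and 9.52 CPM), and in Gm20388 near Gins2 (9.86, 10.8, 10.6 and 9.76 CPM). The Gm20388 member was most open in microglia, at 96.7 CPM from 267 cut sites, 9.44 times the CPM of all nuclei.

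Microglia stood out among the cell classes. A region was said to be led by a class when it had at least 20 cut sites there over the 4 libraries and a class CPM at least 2 times that of all nuclei. RNA named the classes, which the rule had not used. Microglia led 147 members, or 5.78% [4.90, 6.76]. Regions missing from 1 other library were counted over the 4 libraries that list them, which include WT. Microglia held 383503 cut sites in WT and 512178 to 851557 in the other libraries, so the minimum was harder to reach in those sets. The share led by microglia was 2.36% in the regions missing from TG alone, 2.94% for TG-aKO, 2.80% for TG-nKO and 3.33% for TG-tKO. It was 2.99% in 45443 distal regions listed in all 5 libraries with a mean height between the members' own 10th and 90th percentile (1.19 to 3.26 CPM), and 2.501% when those listed in all 5 were weighted to the members' heights. Over all distal regions listed in all 5, whose median height was 3.46 CPM, it was 4.19%. Each of these shares lay below the members' interval, which counts regions as separate draws and holds no variation between libraries or animals. Counting nuclei with a cut site in place of cut sites, microglia led 89 members (3.50%), against 1.31% at like height. Leaving out 1 of the 4 libraries gave 119 to 129 members.

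Microglial nuclei themselves were unequal between libraries. WT held 44 of them, 0.878% of its nuclei and 0.426% of its cut sites, TG 85, TG-aKO 122, TG-nKO 52 and TG-tKO 95, with 0.636% to 1.02% of cut sites. Of the 44 in WT, 1 fell in the cluster high in Apoe, Cst7 and Lpl, against 56, 75, 36 and 52 in the 5xFAD libraries. The number of microglial nuclei and their accessibility per nucleus cannot be told apart in whether a WT peak was called.

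The other classes led fewer members. Oligodendrocytes led 86 (3.38%, against 3.63% at like height in all 5) and their precursors 73 (2.87% [2.26, 3.60] against 3.56%). Inhibitory neurons led 78 (3.07% [2.43, 3.81]), above the 1.80% at like height and the 2.31% weighted to the members' heights, but within the 1.77% to 3.38% of the sets missing from 1 other library. Dentate granule neurons led 55 (2.16% [1.63, 2.81] against 5.69%) and astrocytes 23 (0.904% [0.574, 1.35] against 2.06%). No member was led by the other excitatory neurons, whose 45.6% to 52.0% of cut sites leave almost no room for a CPM 2 times that of all nuclei, and 2081 members (81.8%) had no leading class. These smaller counts moved with the settings: at 3 times the CPM of all nuclei granule neurons led 0, inhibitory neurons 24 and oligodendrocytes 55, and with classes taken from marker scores astrocytes led 80 and inhibitory neurons 122. That turned the direction for astrocytes, to 3.15% of members against 2.81% at like height, and for precursors, to 2.83% against 2.34%. Marker scores drew on other nuclei: in TG they put 262 in astrocytes and 182 in precursors, against 46 and 106 in the clusters. With nuclei counted in place of cut sites astrocytes led 6 and precursors 25. Astrocytes led 15 members without TG, 11 without TG-aKO and 14 without TG-nKO, and precursors 43 without TG-nKO. In regions missing from TG-tKO alone, the library with the fewest oligodendrocytes, that class led 14.7%, against 2.46% to 5.41% for the sets of TG, TG-aKO and TG-nKO. The part of nucleus numbers in the microglial share was not tested.

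**Figure D3:**
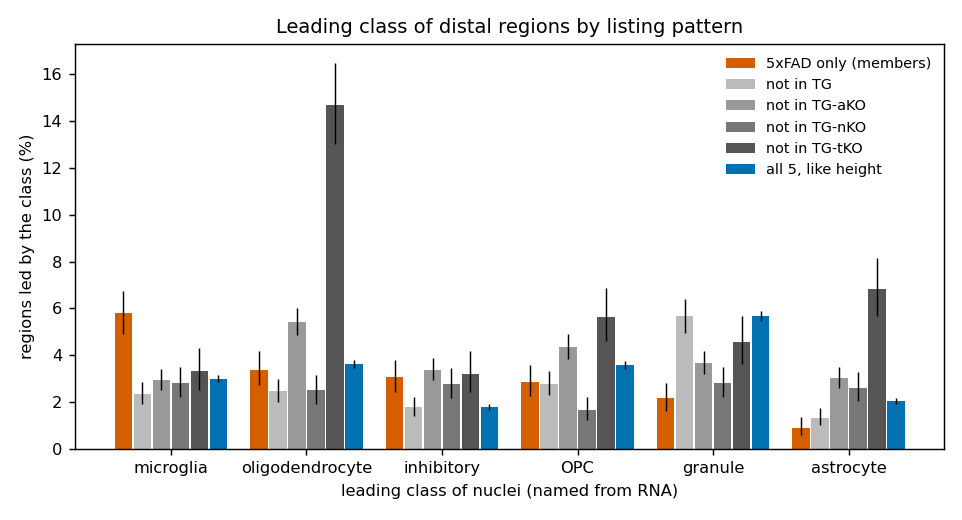
Percent of distal regions led by each class of nuclei (vertical axis) for the members, for regions missing from 1 other library and for regions of like height listed in all 5. Bars are exact binomial 95% intervals. Microglia led 5.78% of the members against 2.36% to 3.33% of the other sets, and oligodendrocytes led 14.7% of the regions not in TG-tKO.

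The microglial members with the highest ratios to all nuclei come next. A member at chr8:89392521-89393534 had 89.2 times the CPM in microglia that it had over all nuclei. Its nearest gene, Sall1, a transcription factor of microglial identity, was 348358 bp away. In microglia it stood at 114, 109, 115 and 119 CPM in TG, TG-aKO, TG-nKO and TG-tKO, and so hardly varied. An intronic member of Tbxas1, the thromboxane synthase gene (chr6:38940750-38941792), was 62.9 times as high in microglia and stood at 110, 82.2, 70.3 and 73.2 CPM there. Members near Gm826 (chr2:160267682-160268653) and in Gm33782 (chr10:96332713-96333691) had 78.5 and 60.9 times the CPM of all nuclei. Over all nuclei these 4 members stood between 0.779 and 2.02 CPM. Some cut sites fell in other classes: the Gm33782 member had 80 (1.57 CPM) in inhibitory neurons and 106 (0.653 CPM) in excitatory neurons beside 295 in microglia. In excitatory neurons the Sall1, Gm826 and Tbxas1 members had 0.271, 0.240 and 0.536 CPM. Whether these counts reflect open chromatin in those classes was not tested. The median microglia-led member had 55 cut sites in that class and 9.98 times the CPM of all nuclei.

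The members were also compared between the 2 microglial clusters, the one high in Apoe, Cst7 and Lpl and the low one. Their summed height was 4360 CPM in the high cluster against 3657 in the low cluster in TG, a ratio of 1.19 [1.11, 1.29]. It was 1.15 [1.07, 1.24] in TG-aKO, 1.32 [1.197, 1.465] in TG-nKO and 1.22 [1.13, 1.33] in TG-tKO. Microglia-led regions of like height listed in all 5 libraries gave 1.046, 1.110, 1.014 and 1.087, which lay below the members' interval in TG, TG-nKO and TG-tKO and inside it in TG-aKO. Single members were higher in the high cluster in all 4 libraries in 30 of 147 cases (20.4%), where the background was 11.9% over all microglia-led regions listed in all 5 and 13.5% at like height. They were lower in all 4 in 8 cases (5.44%, against 6.59% and 5.37%). By the rule members have no WT peak, while the regions set beside them have one. Of the 44 WT microglial nuclei, 43 were in the low cluster, so the comparison is not independent of the rule. The lead needed 20 cut sites pooled over both clusters. At these members the high cluster held more of them, 2191 against 1030 in TG. Members can thus pass this minimum through the cluster in which they are then called higher, although the regions set beside them met the same minimum. The parts of the rule and of the minimum in the difference were not tested.

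**Figure D4:**
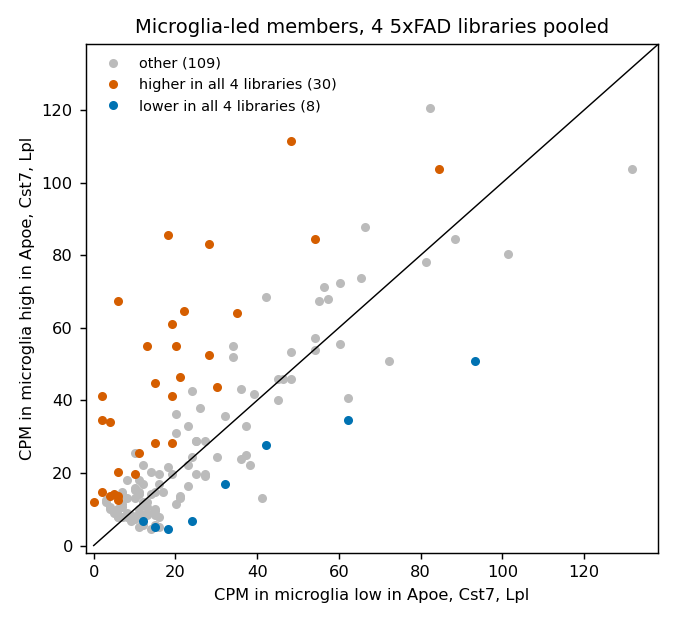
Height of each of the 147 microglia-led members in the microglial cluster high in Apoe, Cst7 and Lpl (vertical axis, CPM) against the low cluster (horizontal axis, CPM), cut sites of the 4 5xFAD libraries pooled. The line marks equal height. The 30 members higher in all 4 libraries are orange and the 8 lower in all 4 are blue.

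Those of the 30 described next were chosen after their values were seen. Those at Ctsb, Apbb2 and Myo1e come from a gene list, which was itself chosen with earlier results of these data known. In an intron of Acaca, which makes malonyl-CoA for fatty acid synthesis, the member at chr11:84197596-84198632 had 57.7, 68.3, 45.6 and 104 CPM in the high cluster and 3.55, 6.79, 21.5 and 0 CPM in the low one. A member 14931 bp from Itga5, the fibronectin receptor subunit, had 35.8, 57.5, 37.6 and 26.9 CPM against 0, 6.79, 0 and 0. Pooled over libraries the low cluster held 6 cut sites at the Acaca member against 119 in the high one. In Lpp, an adhesion gene, the member at chr16:24891328-24892239 had 85.5 CPM pooled over libraries in the high cluster and 18.1 in the low one. In Pitpnc1, a phosphatidylinositol transfer protein gene, the member at chr11:107317506-107318523 had 112 against 48.2 CPM. The pooled values were 83.2 against 28.1 CPM in Tep1 and 84.3 against 54.2 CPM in Serpine2, which encodes a protease inhibitor. In the opposite direction, a member 10433 bp from Iscu (chr5:113783237-113784226) had 50.9 CPM in the high cluster and 93.4 in the low one. The Sall1 member was lower in the high cluster over the pool, at 104 against 132 CPM, but not in every library.

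The gene lists were chosen with earlier results of these data known, so their shares are descriptions. The list of plaque-associated microglial genes held 6 members among the 113 distal regions nearest to its genes (5.31%), where all genes held 2.49%. These members were nearest to Apbb2, Cd300lb, Ctsb, Dkk2, Lgals3 and Myo1e, and 27 of the 33 listed genes found had none. In Apbb2, which encodes an adaptor that binds the amyloid precursor protein, the intronic member (chr5:66601848-66602828) had 42.1, 44.6, 84.0 and 35.8 CPM in microglia. In Myo1e, a myosin of membrane and phagocytic structures, the intronic member (chr9:70284308-70285336) had 19.1, 47.0, 58.6 and 52.1 CPM, lowest in TG. In Ctsb, which encodes the lysosomal protease cathepsin B, it had 61.2, 50.5, 46.9 and 53.7 CPM (chr14:63128168-63129163). These 3 were led by microglia. The Dkk2 member, nearest to this gene of a Wnt pathway regulator and in an intron of Gm29865, was led by granule neurons (2.61 times) and stood at 1.247, 1.69, 2.30 and 1.73 CPM over all nuclei. The member nearest to Lgals3, the galectin gene, had no leading class and stood at 1.81, 1.94, 2.07 and 2.57 CPM. The Cd300lb member had no leading class and stood at 1.51 CPM over all nuclei in TG against 2.88, 3.04 and 3.00 CPM in the libraries labelled MAGL-KO. The other lists held 0 to 4 members each, and 2 of them had a higher share than the plaque list. Homeostatic microglial genes held 1 of 49 regions (Olfml3), interferon genes 1 of 28 (Ddx58), disease-state oligodendrocyte genes 0 of 46, reactive astrocyte genes 4 of 67 (5.97%; Aqp4, Cd44, Ctsb and Osmr), immediate early genes 4 of 69 (5.80%; Egr3, Fosl2, Homer1 and Nr4a3), and transgene and endocannabinoid genes 2 of 57 (Abhd12 and Thy1). The highest of these other than Thy1 was the intronic member of Nr4a3, an activity-induced nuclear receptor, at 4.55, 5.25, 6.76 and 6.10 CPM.

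RNA of the nearest genes was measured in the class that led each member. For microglia 54 of 136 such genes within 100 kb had at least 20 UMIs over WT and TG. Of these, 14 (25.9%) were past 1.5-fold higher in TG, where the background was 19.9% of all genes measured in microglia, and 8 (14.8%) were lower, against 14.5%. The share higher was near the background, whose value lies inside its interval [15.0, 39.7]. The highest log2 ratios among genes with at least 50 UMIs were at Myo1e, Apbb2 and Serpine2. Myo1e went from 67.7 CPM [27.2, 140] in WT to 743, 823, 609 and 772 CPM in TG, TG-aKO, TG-nKO and TG-tKO, a log2 ratio of 3.36 for TG over WT. Apbb2 went from 213 to 1121 CPM in TG (2.37) and Serpine2 from 106 to 461 CPM (2.07). In these 3 genes the WT interval did not overlap that of TG, and all 5xFAD libraries were high. Acaca (1.85) and Ctsb (1.79) were also higher in TG, at 641 against 174 and 1181 against 339 CPM. Among the 11 genes measured next to the 30 members higher in the high cluster, 5 were past 1.5-fold higher in TG and 0 lower, and next to the other microglia-led members 9 of 43 were higher and 8 lower. The 5 are the genes just named. The minimum of 20 UMIs was summed over WT and TG. Myo1e, Serpine2 and Acaca had 7, 11 and 18 UMIs in WT and 161, 100 and 139 in TG, so they reached it through TG. The counts of genes higher are therefore not independent of the filter. WT microglia came almost wholly from the low cluster, so the TG against WT ratio and the split of clusters rest on much the same nuclei. Marker scores put 131 WT and 169 TG nuclei in microglia, with 1926354 and 2193557 UMIs. The clusters held 44 and 85 nuclei, with 103381 and 216825 UMIs, so most marker-score RNA came from nuclei outside them. With marker-score classes the share higher was 21.6% of 74 genes against 7.19% of all genes, the share lower 0%, and Apbb2 had a log2 ratio of 0.36.

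The lowest log2 ratios under the same minimum were at Snx13, a sorting nexin gene (-1.08), Usp40, a deubiquitinase gene (-0.69) and Cflar, which encodes an inhibitor of caspase 8 (-0.68). Snx13 stood at 658 CPM [511, 834] in WT and 309 [240, 392] in TG, and at 477, 385 and 456 CPM in the libraries labelled MAGL-KO. For Usp40 and Cflar the WT and TG intervals overlapped. None of the 3 was past the fold with marker-score classes, where Snx13 was at -0.05, Usp40 at 0.02 and Cflar at 0.13. Those classes draw on the larger set of nuclei given above, so they do not measure the same nuclei again.

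**Figure D5:**
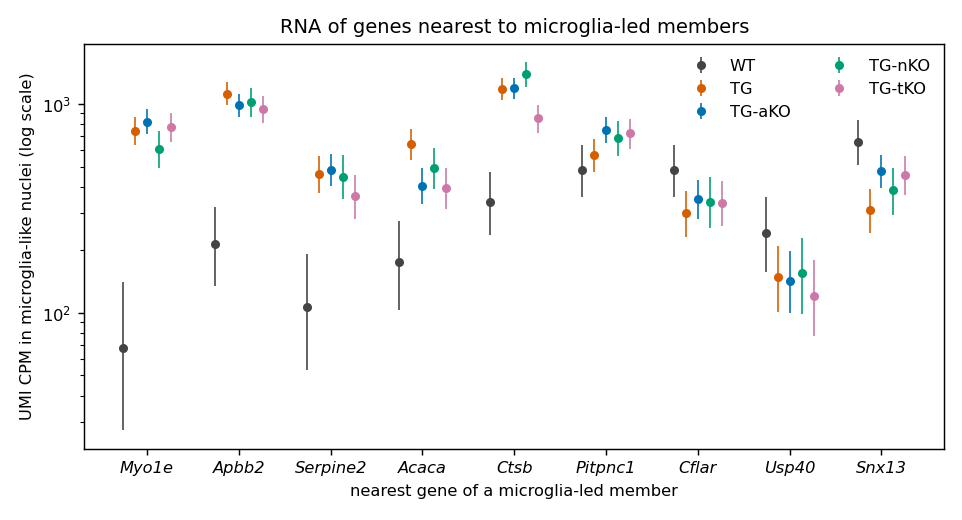
RNA of 9 genes nearest to microglia-led members in microglial nuclei (vertical axis, UMI CPM, log scale), 1 point per library with its exact Poisson 95% interval. Myo1e, Apbb2, Serpine2, Acaca and Ctsb lie higher in all 4 5xFAD libraries than in WT, and Snx13 is lowest in TG.

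Next to oligodendrocyte-led members few genes differed. Of 35 genes measured, 2 were higher and 2 lower in TG, 5.71% each way against 4.57% and 6.91% of all genes measured in that class. Aldh1l2, a mitochondrial folate enzyme gene, had the highest ratio (1.33), at 17.0 CPM [9.53, 28.1] in WT, 50.3 [37.4, 66.1] in TG and 24.9, 43.0 and 62.4 in TG-aKO, TG-nKO and TG-tKO. Zfp90, a zinc finger gene, followed (0.84), at 19.3 CPM [11.2, 30.9] in WT, 38.5 [27.4, 52.6] in TG and 24.9, 39.8 and 15.6 in the others. Its WT and TG intervals overlapped and TG-tKO was below WT. Aldh1l2 and Zfp90 had 15 and 17 UMIs in WT and 51 and 39 in TG. They thus reached the minimum of UMIs summed over WT and TG through TG. The count of genes higher is therefore not independent of the filter in this class either. Bicd2, a dynein adaptor gene, was at 0.37. Lowest was Gm16068, at -0.64, and among genes with a full name Mtmr6, a lipid phosphatase gene (-0.60), Nedd4l, a ubiquitin ligase gene (-0.52) and Dop1a (-0.44), which encodes a membrane-trafficking protein. With marker-score classes Mtmr6 was at -0.12, Nedd4l at 0.26, Dop1a at -0.01 and Bicd2 at 0.16. The strongest member of this class by its ratio to all nuclei, at 33.3 times, lay near D030044L04Rik (chr6:116986231-116987202). An intronic member of Prima1, which anchors acetylcholinesterase, had 48.7, 41.9, 49.8 and 48.9 CPM in oligodendrocytes.

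The other classes had few neighbour genes that differed. In granule neurons 1 of 31 genes measured (Thy1) was past 1.5-fold higher in TG and 0 lower, against 0.013% and 0.0974% of all genes. For Thy1, UMIs of the endogenous gene were not separated from any of the transgenes. In inhibitory neurons 0 of 26 were past the fold in either direction (background 0.312% higher and 0.0857% lower). In oligodendrocyte precursors 2 of 30 were higher and 2 lower (background 6.53% and 6.63%), and in astrocytes 0 of 2 (background 10.1% and 11%).

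Neuron-led members had lower ratios to all nuclei, since neurons make up most nuclei. In granule neurons the highest ratio, 2.83, was at chr1:190173328-190174094, 2613 bp from Prox1, the transcription factor that specifies granule identity, at 10.8, 15.3, 14.4 and 11.0 CPM in that class. A WT peak lay only 131 bp from this member. An intronic member of Notch2, a receptor of the Notch pathway, had 10.9, 11.1, 9.57 and 12.7 CPM there. In inhibitory neurons the member with the highest ratio, 5.11, lay 125464 bp from Sp8, a transcription factor of interneurons, at 9.65, 8.80, 8.48 and 7.23 CPM. The intronic Creb5 member followed at 4.77 times. Among astrocyte-led members the highest ratio, 21.3, was in an intron of Tspan11. Among precursor-led members it was 32.8, at a place 10357 bp from Gm45168 and 219 bp from a WT peak.

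The 3 libraries labelled MAGL-KO share TG as their reference, and their ratios to it are given side by side. The median log2 ratio of the members was 0.16 in TG-aKO, 0.08 in TG-nKO and 0.09 in TG-tKO, where all distal regions listed in the 4 5xFAD libraries gave 0.08, 0.01 and 0.03. In TG-aKO 154 members (6.06%) were past 1.5-fold higher, against a background of 2.56%, in TG-nKO 188 (7.39%) against 2.95% and in TG-tKO 135 (5.31%) against 2.83%. Past 1.5-fold lower were 12 (0.472%, background 0.356%), 30 (1.18%, background 0.847%) and 23 (0.904%, background 0.758%). Regions of like height listed in all 5 gave 3.21%, 3.37% and 3.55% higher and 0.462%, 1.22% and 1.07% lower, so the members' share lower was not above these in TG-nKO and TG-tKO. With median-of-ratios size factors the members' median was 0.10, 0.07 and 0.06, and 103 in TG-aKO were higher (4.05%, all distal regions 1.57%). More members were thus past the fold upward from TG than downward, and TG has the fewest cut sites of the 5 libraries. The parts of depth and of peak extents that differ between libraries were not tested. With a pseudocount of 0.1 CPM in place of 0.5, 274, 287 and 245 members were past the fold upward (10.8%, 11.3% and 9.63%, against 4.48%, 4.53% and 4.53% of all distal regions) and 21, 62 and 46 downward (0.826%, 2.44% and 1.81%, against 0.690%, 1.71% and 1.33%). Granule-led members had a median of 0.33, 0.32 and 0.34, and 12, 16 and 11 of 55 were past the fold upward. The share past the fold over all granule-led regions was not counted, so these counts have no background. The lead was called on cut sites pooled over the 4 5xFAD libraries, 3 of them labelled MAGL-KO, so it is not independent of a higher count there. Inhibitory-led members were at 0.04, -0.01 and -0.03, and microglia-led members at 0.13, 0.01 and 0.03.

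Summed over a class, the granule-led members reached 312 CPM [304, 320] in TG, 413 in TG-aKO, 468 in TG-nKO and 409 in TG-tKO in granule neurons. Without the Thy1 member the other 54 gave 206, 261, 280 and 272 CPM, log2 ratios of 0.34, 0.45 and 0.40. The 5205 granule-led distal regions listed in all 5 libraries, summed alike, gave log2 ratios of 0.004, -0.009 and -0.022. They were not matched to the members' heights, and the 2585 granule-led regions of like height were not summed. Microglia-led members summed to 4107 CPM [3967, 4252] in TG, 4225 in TG-aKO, 4387 in TG-nKO and 4143 in TG-tKO in microglia, log2 ratios of 0.04, 0.10 and 0.01, close to TG in each library. The 4217 microglia-led distal regions listed in all 5 gave 0.008, 0.059 and -0.001. The members farthest above TG in all 3 were picked for that pattern and are given as values. One, 187255 bp from Dmrta1 (chr4:89875454-89876851), held 38 cut sites (0.493 CPM) in TG and 218, 262 and 265 (2.61, 3.26 and 2.84 CPM) in the others. The one nearest to Olfml3, a homeostatic microglial gene, held 0.364 CPM in TG and 1.95, 1.94 and 2.25 CPM (chr3:103695311-103696238), and it had no leading class. In TG both members lay below the 1st percentile of the distal regions TG lists (0.714 CPM). Whether the peaks covered fewer bases in TG was not tested. An intronic member of Dock1 had 0.935 CPM against 2.89, 2.85 and 2.59. In the other direction, a member over a coding exon of Cobl, an actin-nucleating protein gene (chr11:12309293-12310140), had 1.40 CPM in TG and 0.479, 0.646 and 0.535 CPM.

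By place, 1346 members (52.9%) had their midpoint in an intron and 1027 (40.4%) between genes, against 44.0% and 51.4% of regions of like height listed in all 5. The sets missing from 1 other library had 48.3% to 51.1% in introns. A further 57 midpoints were in coding exons, 49 in untranslated and 64 in non-coding exons. The median distance to a gene position was 29980 bp, and 467 members (18.4%) were over 100 kb from any. The nearest WT peak was a median 2992 bp away, and 351 members (13.8%) had one within 500 bp, where the other sets had 10.8% to 15.1% within that distance of a peak of their missing library. Just inside the rule, the closest member to a gene position was 1008 bp from Gm33677 and the closest to a WT peak 2 bp from it. Just outside, a region listed in the same 4 libraries was 996 bp from Baalc.

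The members were spread over the genome. The share of distal regions of the 4 5xFAD libraries that were members ran from 1.85% on chromosome 7 to 2.84% on X among the autosomes and X. The 1 Mb bin with the most members, chr11:57000001-58000000, held 7 of 78 regions (8.97%), which was not the highest share. Of these, 3 lay in introns of Gria1, which encodes an AMPA receptor subunit, at 3.14, 3.80, 3.11 and 2.88 CPM, at 3.51, 2.95, 3.22 and 3.23 CPM, and at 3.27, 3.68, 3.90 and 2.71 CPM, and 1 in Galnt10 was led by astrocytes (12.95 times). Among the 10 bins with 6 members, chr8:92000001-93000000 had the highest share (6 of 42, 14.3%). Its members include 2 upstream of the matrix metalloprotease gene Mmp2 at 1.73, 2.20, 1.963 and 1.58 CPM and at 1.87, 2.16, 1.88 and 2.16 CPM. None of these 6 had a leading class.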

How the data were processed

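Nuclei of 5 hippocampus libraries were read for RNA and accessible DNA, 1 library a group. The authors deposited raw counts from Cell Ranger ARC 2.0.0, per the submitters' processing notes, which also name mm10 and Seurat: UMIs per gene, and transposase cut sites per peak called in each library separately. A region without a peak in a library therefore has no count there. Peaks were merged over 1 bp or more. Nuclei needed 500 genes and at most 5% mitochondrial UMIs. Because the doublet caller's own threshold marked 1 to 6 nuclei in 4 libraries, the highest scores were removed at 0.8% per 1000 nuclei. Classes came from Leiden clusters of RNA (scanpy 1.11.5) and fixed markers, and 13 of 54 clusters, with 8.70% of nuclei, stayed unnamed. Heights are CPM, cut sites scaled to each library's total in peaks of the kept nuclei. Log2 ratios used a pseudocount of 0.5 CPM for cut sites and 5 CPM for RNA. Positions were read in GENCODE vM21 (GRCm38). The motif search planned on the central 300 bases used RefSeq windows instead, as no genome was used here. Intervals are exact Poisson, or Clopper-Pearson for shares; those of ratios come from the Clopper-Pearson interval of the split of cut sites between both clusters. Scripts were tested on simulated data. Regions were named by rule: the 8 highest, the 4 most class-biased per class, the 1 Mb bins with the most members and members nearest to genes of 7 lists. RNA was named for the 3 highest and 3 lowest genes in microglia and oligodendrocytes. Members and lists were chosen with earlier results of these data known. Alternatives covered the peak and class thresholds, pseudocounts, doublets, marker-score classes and left-out libraries.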

Additional observations from a re-analysis of the deposited data

How the results depend on the processing

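No paired analysis was possible because a group holds a single library. Of 200 alternative values, 154 stayed within 1.5 times a count or within a value's counting interval, which is wide for single genes, 44 moved beyond that and 2 past the fold reversed; those that leave out a library, drop members near a WT peak, weight heights, drop the Thy1 member or restrict windows were chosen after seeing the data. Counting only peaks of 3 CPM or more in a 5xFAD library left 204 members (0.404%). By share of nuclei, median height was 53.7% of that in regions listed in all 5, against 52.6% by CPM. Microglia led 89 members with nuclei counted in place of cut sites, and the ratio of their share to that at like height, 1.93, was then 2.68; it was 2.31 when standardised to heights and 2.05 to 2.33 with each library left out. With a pseudocount of 0.1 CPM the excess of the median log2 ratio over all distal regions was 0.106, 0.0834 and 0.0764 in TG-aKO, TG-nKO and TG-tKO (0.0818, 0.0666 and 0.0590 in the text's setting), with 274, 287 and 245 members higher and 21, 62 and 46 lower. In excitatory nuclei alone 264, 294 and 196 were higher (10.4%, 11.6% and 7.71%, against 5.89%, 6.11% and 4.51% of all distal regions) and 21, 77 and 56 lower (0.826%, 3.03% and 2.20%, against 0.913%, 2.27% and 1.55%), so in TG-aKO the share lower was under that of all regions. With marker-score classes 0% of microglial neighbour genes were lower in TG, and Cflar (0.126) and Usp40 (0.0220) reversed, as did Nedd4l, which was not past the fold, and the astrocyte and precursor shares against like height; the cause was not tested. Motifs in whole or central member sequences were not run. AP-1 matches anywhere in the window gave 29.2% of 24 windows and 30.0% of 20 windows with at least 150 bases inside a member, against 18.2% of 22 members with the match wholly inside. Depth limits single members: the median microglia-led one had 55 cut sites in microglia over 4 libraries.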

Other observations

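Members nearest to immediate early genes, which neurons switch on with activity, had no leading class at Egr3, Fosl2 and Nr4a3. The Homer1 intronic member was led by microglia at 7.63 times the CPM of all nuclei. It had only 37 cut sites there, against 307 in excitatory and 124 in inhibitory neurons. The Egr3 member (chr14:70067629-70068692) stood at 2.64, 3.08, 2.55 and 2.82 CPM over all nuclei in TG, TG-aKO, TG-nKO and TG-tKO. Near the cytokine receptor gene Osmr, of the reactive astrocyte list, a member stood at 3.22, 2.61, 2.05 and 2.28 CPM, highest in TG. The intronic member of Cd44, a hyaluronan receptor gene of the same list, was flat at 1.66, 1.57, 1.503 and 1.65 CPM, and so was the one at Ddx58, an interferon-induced RNA sensor, at 1.753, 1.88, 1.88 and 1.80 CPM.

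Precursor-led members included an intron of Fry (chr5:150337480-150338445), at 86.1, 64.3, 63.6 and 50.1 CPM in oligodendrocyte precursors, and a place near Gm3143 (chr3:34722038-34723031), at 49.9, 43.7, 78.5 and 51.8 CPM. The astrocyte-led Tspan11 member (chr6:127924395-127925134) had 43.1, 52.7, 47.6 and 15.2 CPM in astrocytes, from 24, 24, 19 and 4 cut sites, too few in TG-tKO to order it among the libraries.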
